A study of Helianthus annuus with 24 samples.

Results

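The transporters described here are 121 of the 42063 assembled contigs (reconstructed transcripts) of a sunflower (Helianthus annuus) nectary RNA-seq experiment. They are the contigs whose best Arabidopsis match is described as a major facilitator superfamily protein, a nitrate transporter or a peptide transporter. An Arabidopsis match was listed for 18797 of the 42063 contigs, and the 121 members match 60 Arabidopsis genes. The part of the rule that removes descriptions with sugar, sucrose, hexose or polyol removed 0 contigs, and several well-known sugar carriers remained because their descriptions name only the superfamily. By matched gene, 48 contigs (22 genes) belong to the NRT1/PTR family (NPF), 1 to the NRT2 nitrate transporters, 3 to the transporters with an SPX domain and 8 to nodulin-like facilitators. A further 15 contigs match sugar carriers and 33 match other facilitators. The other 13 contigs match 6 oligopeptide transporters (OPT), which are not facilitator superfamily proteins and entered through the words of their description. The sugar carrier and nodulin-like groups were drawn up after values had been seen.

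Major facilitator proteins move small solutes across a membrane, either down their gradient or together with protons. In plants the NPF proteins carry nitrate, short peptides, glucosinolates or hormones, depending on the member, and proteins with an SPX domain load phosphate into the vacuole. OPT proteins carry peptides or metal chelates. Nectaries are secretory tissues fed by phloem, and nectar holds amino acids and minerals beside its sugars.

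RNA was sequenced from floral nectaries of 7 lines and from leaf, in 24 libraries, 3 in each of 8 groups. ER is a maintainer line, and the other 6 lines are interspecific crosses that the submitters class by nectar output, with 412 and 441 low, 452 and 456 medium, and 434 and 467 high. Each nectary library is a pool of about 50 nectaries hand-dissected from open, secreting florets of greenhouse plants about 40 days old, taken 4 to 8 h after dawn, with different plants in each pool. All plants had 16 h of light and 8 h of dark at 23 °C, and libraries were read as pairs of 50 bases. The labels give line 434 for the leaf libraries, but the design text gives ER, so ER nectary was also set against leaf. With ER nectary 41 members were higher and 44 lower than leaf, where 66.1% of all contigs were called. With nectary of line 434 the counts were 39 and 47.

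The unit is the authors' normalized value, a read tally scaled to a common upper quartile and rounded. Library totals ran from 10.46 to 16.97 M units, which correspond to an estimated 8.45 to 16.09 M reads. The 8 contigs of nectary markers (SWEET9, CRC, MYB21 and AG) summed to 38349 to 282774 in nectary libraries, against 160 to 222 in leaf, where 2 of the 8 were at 0. The 16 contigs of mesophyll markers summed to 1230 to 14546 in nectary libraries, against 652406 to 904590 in leaf. Their part in the differences between nectary and leaf was not tested. A pair of libraries stood apart from their groups. Replicate 3 of line 452 correlated at 0.793 and 0.823 with the other libraries of its line and had 9.28% of contigs at 0, against 3.07% to 6.23% elsewhere. Replicate 2 of line 456 correlated at 0.924 and 0.926 with its group, and its mesophyll markers summed to 14546, against 3455 and 3529 in the other libraries of line 456. The main counts of the comparisons among nectaries are therefore given with and without this pair. Nectary against leaf also draws its spread from every library, and its counts are given with the pair only. No contig lengths are given, so levels are compared between groups and not between contigs.

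Tests used limma on log2(value + 1), fitted over all contigs with a mean of at least 10, and a contig counts as called where its adjusted p (Benjamini-Hochberg) is under 0.05. Changes are log2 differences with their standard error (SE), and those of contigs with low values are understated by the added constant. Separate cultivation of the pools is not described beyond different plants, so the p-values measure the spread between pools. Fewer cells of a type and less RNA per cell cannot be told apart in such libraries.

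The first question was which of these transporters differ between nectary and leaf of the same labelled line. Of the 118 members tested, 39 were higher and 47 lower in the nectary of line 434, so 72.9% were called where 61.6% of all 39981 contigs were. In 85 members, or 72% of those tested, the contig was called and the libraries of the tissues did not overlap, where 59.9% of all contigs met both. Among called contigs alone the share without overlap was 98.8% for members and 97.2% for all contigs. Higher calls made up 39.6% and lower calls 22% of all contigs, and the median change was -0.13 among the members and 0.48 among all contigs. NPF contigs were mostly lower, with 14 higher and 25 lower of 48 and a median of -1.23. Nodulin-like contigs had 4 higher and 2 lower of 7, sugar carriers 6 and 3 of 15, OPT contigs 4 and 5 of 13, and other facilitators 9 and 10 of 31. After rescaling by median ratios, which moved the median of all contigs by 0.45, the members split into 34 higher and 57 lower, where 59.2% of all contigs were called, 29.1% higher and 30.1% lower.

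Among the NPF contigs, the one matching NPF5.6 (Helianthus32633) had values of 13601, 9307 and 9769 in nectary of line 434, against 16, 13 and 11 in leaf. All 21 nectary libraries, the lowest at 495, lay above leaf. The change was 9.56 ± 0.56 (SE, adjusted p = 1.42e-11, limma), and no other member rose as far. NPF8.3 is the peptide carrier PTR2, which takes up di- and tripeptides. Its contig Helianthus31471 had 256, 318 and 245 in nectary of line 434, against 17, 21 and 15 in leaf. Every nectary library was above every leaf library for it, and the change was 3.88 ± 0.53 (adjusted p = 3.17e-06). The more abundant NPF8.3 contig, Helianthus31470, was higher by 2.43 ± 0.34 (adjusted p = 3.70e-06).

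NPF6.3 is the dual-affinity nitrate transporter and nitrate sensor NRT1.1 of Arabidopsis. Its main contig Helianthus9427 had 4769, 3647 and 4075 in nectary of line 434, against 716, 1229 and 1106 in leaf. The groups did not overlap, with a change of 2.06 ± 0.49 (adjusted p = 0.00127). With the mean over the 7 nectary lines in place of line 434 the change was 0.15 (adjusted p = 0.72). NPF2.11 carries glucosinolates in Arabidopsis (GTR2). Its contig Helianthus17784 had 3690, 3125 and 3523 in nectary of line 434, against 705, 2512 and 1450 in leaf, a change of 1.33 ± 0.42 (adjusted p = 0.01). This call was lost without leaf replicate 1 (adjusted p = 0.0853) and after rescaling (adjusted p = 0.0835). The 4 NPF2.11 contigs were called in both directions, with Helianthus21213 also higher (1.68 ± 0.47, adjusted p = 0.00426) and the other 2, at low values, lower. Helianthus17798 had 0, 0 and 3 in nectary of line 434, against 154, 77 and 69 in leaf (-5.90 ± 0.54, adjusted p = 1.21e-08). Helianthus17795 was listed at 0 in all 3 libraries of nectary of line 434, against 94, 76 and 39 in leaf. NPF4.6, which transports nitrate and abscisic acid, was likewise called higher (Helianthus8198, 0.75 ± 0.22, adjusted p = 0.00694) but lost its call after rescaling (adjusted p = 0.328) and without leaf replicate 1 (adjusted p = 0.0608).

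NPF1.2 moves nitrate into phloem in Arabidopsis leaves. Helianthus15923, one of its contigs, had 34, 20 and 74 in nectary of line 434, against 0, 0 and 1 in leaf. A second contig, Helianthus15922, had 12, 7 and 12 in nectary of line 434 and was listed at 0 in all leaf libraries. Both were above leaf in all 21 nectary libraries, whose lowest values were 20 and 7. The change of Helianthus15923 was 4.92 ± 0.48 (adjusted p = 2.74e-08), the largest increase of an NPF contig after NPF5.6. Another NPF1.2 contig, Helianthus3222, ran the other way, with 33, 9 and 15 in nectary of line 434, against 378, 363 and 337 in leaf. Of the 21 matched genes with at least 2 called contigs in this comparison, 11 had contigs called in both directions.

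The NPF contigs that were lower in nectary included all 4 that match NPF3.1, a gibberellin transporter of Arabidopsis roots. Helianthus16803 had 2229, 1352 and 926 in nectary of line 434, against 11510, 10743 and 11136 in leaf, a change of -2.98 ± 0.28 (adjusted p = 2.11e-08). Helianthus15899 had 25, 13 and 9 in nectary of line 434, against 4427, 3843 and 2673 in leaf, a change of -7.86 ± 0.69 (adjusted p = 6.51e-09). Leaf lay above all nectary libraries for both contigs. NPF5.1 had 3 contigs, all lower, and Helianthus14770 had 69, 7 and 21 in nectary of line 434, against 4093, 2659 and 2417 in leaf (-7.01 ± 0.64, adjusted p = 1.25e-08). That contig was not low in every nectary, as line 456 had 2453, 1295 and 3328.

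NPF2.10 is the glucosinolate transporter GTR1, and its contig Helianthus17786 had 4, 9 and 6 in nectary of line 434, against 908, 635 and 511 in leaf (-6.56 ± 0.87, adjusted p = 2.08e-06). NPF6.2, which holds nitrate in the petiole, had Helianthus7359 at 465, 132 and 173 in nectary of line 434, against 3733, 2248 and 2299 in leaf (-3.60 ± 0.57, adjusted p = 1.74e-05). For NPF7.3, the NRT1.5 protein that loads nitrate into xylem, Helianthus33312 had 247, 267 and 231 in nectary of line 434, against 3271, 3299 and 2526 in leaf (-3.60 ± 0.38, adjusted p = 1.05e-07). These 3 contigs had every leaf library above every nectary library. A second NPF7.3 contig, Helianthus33314, had 269, 230 and 221 in nectary of line 434, against 201, 212 and 98 in leaf, and was not called (adjusted p = 0.521). The phloem-loading NPF2.13 (Helianthus33036) had 318, 101 and 252 in nectary of line 434, against 126, 118 and 75 in leaf, and was not called (0.95 ± 0.42, adjusted p = 0.059). It was called higher without replicate 2 of line 434 (1.44, adjusted p = 0.00679), with library weights (adjusted p = 0.0462), without the 2 outlying libraries (adjusted p = 0.0394) and with the mean of the 7 lines (1.19, adjusted p = 0.00271). The xylem-unloading NPF7.2 (Helianthus19635) was not called (0.11 ± 0.51, adjusted p = 0.868), but was higher with the mean of the 7 lines (0.89, adjusted p = 0.0456).

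The only NRT2 member matches NRT2.7, a nitrate transporter of the seed vacuole in Arabidopsis. Helianthus35384 had 14, 55 and 9 in nectary of line 434, against 412, 1536 and 862 in leaf, and its change was -5.33 ± 0.64 (adjusted p = 5.75e-07). Its highest value in any nectary library was 88. Among the members of other families, NiaP (AT3G13050), a carrier of nicotinate, fell furthest. Its contig Helianthus2232 had 19, 0 and 0 in nectary of line 434, against 1627, 1264 and 1471 in leaf (-9.06 ± 1.17, adjusted p = 1.57e-06). A more abundant NiaP contig, Helianthus26515, had 2362, 1913 and 1847 in nectary of line 434, against 4198, 2611 and 2513 in leaf. It was not called (adjusted p = 0.0905), but was after rescaling (adjusted p = 0.00644).

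Nodulin-like and sugar carrier contigs were also among those with large increases. The nodulin-like AT4G34950 contig Helianthus31435 had 8669, 7056 and 7681 in nectary of line 434, against 118, 71 and 88 in leaf (6.41 ± 0.50, adjusted p = 9.61e-10). AT2G39210, another nodulin-like protein, had 9224, 12230 and 9401 for Helianthus26429 in nectary of line 434, against 745, 661 and 653 in leaf (3.89 ± 0.61, adjusted p = 1.59e-05). The AT4G34950 contig was above leaf in all 21 nectary libraries, whereas the AT2G39210 contig was at 350 in replicate 3 of line 452 and at 354 in replicate 2 of line 456, below leaf. STP13 (AT5G26340) is a hexose-proton symporter of the plasma membrane. Its contig Helianthus13141 had 11525, 9123 and 9955 in nectary of line 434, against 582, 519 and 501 in leaf (4.25 ± 0.27, adjusted p = 5.91e-11). Helianthus13140, of the same match, rose by 6.73 ± 0.58 (adjusted p = 5.47e-09). ERDL6 (AT1G75220) exports glucose from the vacuole, and its contig Helianthus38019 was higher by 4.03 ± 0.31 (adjusted p = 8.35e-10), with 1370, 1420 and 1530 in nectary of line 434, against 89, 107 and 69 in leaf.

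**Figure D1:**
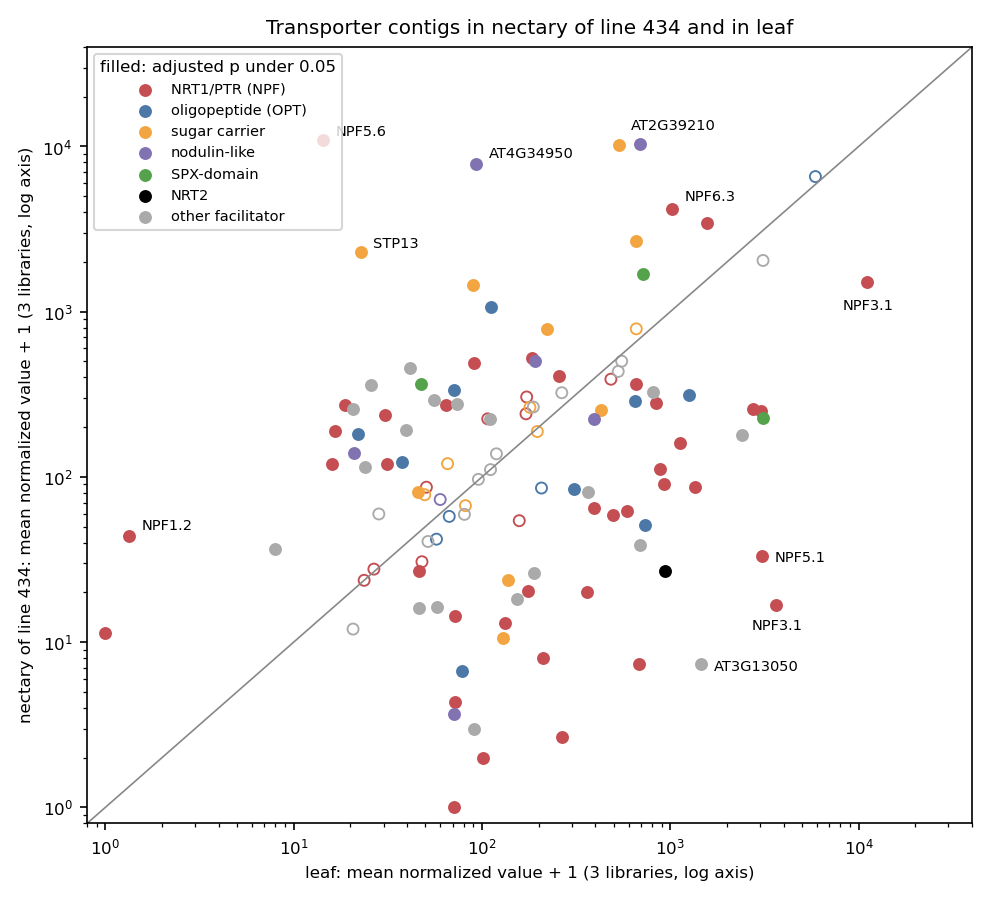
Mean normalized value + 1 of each tested member in nectary of line 434 (vertical axis) against leaf (horizontal axis), both on log axes, with 3 libraries per mean, colours for families and filled points for calls (adjusted p under 0.05). The NPF5.6 contig (nectary mean over 3 libraries near the top, leaf values of 11 to 16) lies far above the diagonal, and most filled NPF points lie below it, 25 of 39.

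Over the 3 contigs with an SPX domain, all matching SPX-MFS3, the tissues split. Helianthus31524 had 278, 195 and 209 in nectary of line 434, against 4079, 2311 and 2874 in leaf (-3.74 ± 0.49, adjusted p = 2.09e-06). Helianthus39903 had 2091, 1498 and 1466 in nectary of line 434, against 686, 796 and 652 in leaf (1.23 ± 0.19, adjusted p = 1.45e-05), and Helianthus39904 was also higher (3.01 ± 0.76, adjusted p = 0.00204). In the low lines Helianthus39903 lay between 449 and 525, below leaf. Among OPT contigs, OPT7 (AT4G10770) had 1 contig higher and 1 lower. Helianthus17086 had 844, 1150 and 1188 in nectary of line 434, against 92, 151 and 88 in leaf (3.28 ± 0.37, adjusted p = 2.65e-07). OPT3 (AT4G16370), which carries iron into phloem, did not differ beyond its spread in its main contig Helianthus29518 (0.17 ± 0.22, adjusted p = 0.52). With ER nectary in place of line 434 that contig was lower than leaf by 2.42 on the log2 scale (adjusted p = 6.64e-09).

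Across all libraries, 99 members had a value above 0 in every library. In 19 members every nectary library lay above every leaf library, where 13.9% of the 39981 contigs tested did so. In 36 members every leaf library lay above every nectary library, where 14.2% of contigs did so. With values summed over contigs of a match, 19 of the 60 matched genes were higher and 24 lower in nectary of line 434. Over all matched genes of the series 72.3% were called, so in the sums the members were called about as often as genes in general.

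The second question was whether transporters differ between nectaries of high and of low lines. Among the 113 members tested, the high lines had 26 higher and 27 lower, so 46.9% were called where 31.2% of all 38457 contigs were, 12.3% higher and 18.9% lower. NPF contigs had 8 higher, 21 lower and 16 not called of 45, and their median change was -0.74, beside -0.01 for all contigs. Sugar carriers had 8 higher and 1 lower of 15, OPT contigs 4 and 1 of 13, nodulin-like contigs 3 and 0 of 6, SPX-domain contigs 2 and 0 of 3, and other facilitators 1 and 4 of 30. Without the 2 outlying medium libraries 37 members were higher and 34 lower, where 47.6% of contigs were called, and NPF contigs had 11 higher and 24 lower. All 53 members called with every library were then called in the same direction. In 29 of the 53 the high and low libraries did not overlap, which is 25.7% of the members tested, where 13.7% of all contigs were called without overlap. Among called contigs alone the share was 54.7% for members and 44% for all contigs. With the line as the unit, 2 lines against 2, only the SPX-MFS3 contig Helianthus39903 was called (adjusted p = 0.0353), where 0.78% of contigs were.

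**Figure D2:**
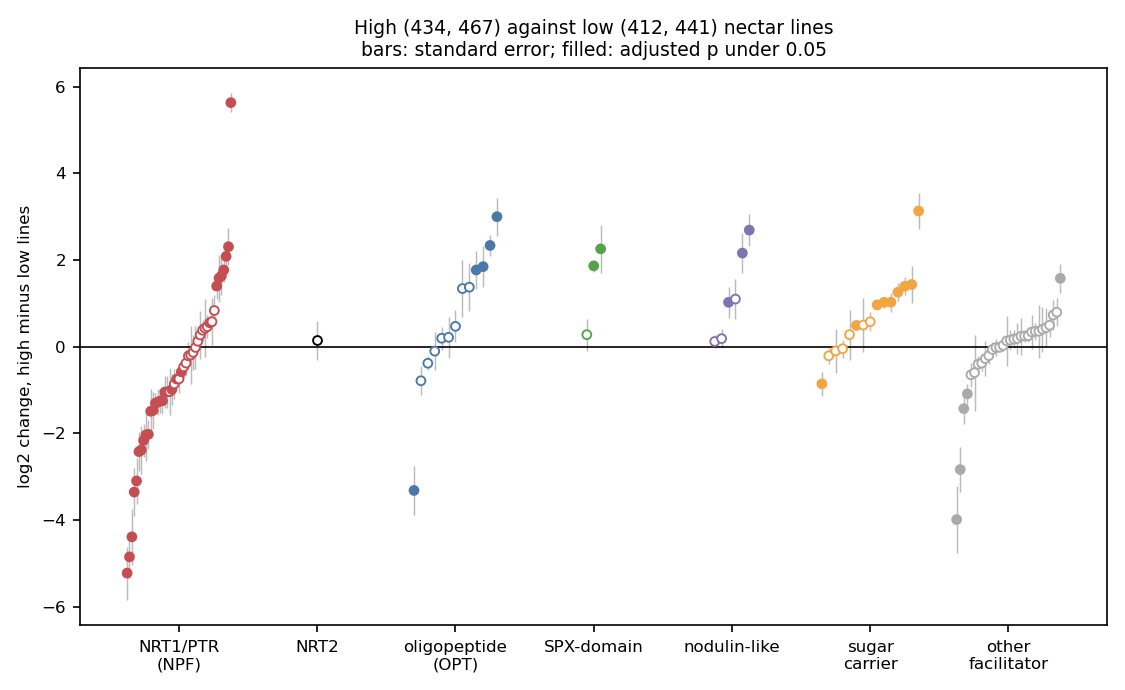
Log2 change, high minus low lines, of each of the 113 members tested, grouped by family, with standard errors as bars and filled points for adjusted p under 0.05. The NPF3.1 contig at 5.63 stands above all other members, and filled NPF points below 0 number 21, against 8 above.

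NPF3.1 gave the largest difference. Helianthus16803 had values of 926 to 4658 (median 2322.5) in high lines, against 30 to 69 (median 41) in low lines. All 6 high libraries were above all 6 low ones, and the change was 5.63 ± 0.22 (adjusted p = 9.72e-13). Both high lines shared this, with 2229, 1352 and 926 in line 434 and 3611, 4658 and 2416 in line 467. Its leaf level, 10743 to 11510, was above every nectary library. Of the NPF3.1 contigs, 1 was called higher and 2 lower. The other NPF3.1 contig named above, Helianthus15899, was lower in high lines (-1.49 ± 0.52, adjusted p = 0.0349), a call lost when any of 7 single libraries of lines 412, 434, 441 or 467 was left out (adjusted p up to 0.103). Helianthus29208 had 6 to 21 (median 12.5) in high lines, against 14 to 43 (median 32.5) in low lines, with overlap.

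NPF5.6 (Helianthus32633) had 4215 to 13601 (median 7503.5) in high lines, against 974 to 2818 (median 1198.5) in low lines, with no overlap and a change of 2.31 ± 0.42 (adjusted p = 0.00038). NPF6.3 (Helianthus9427) had 1134 to 4769 (median 2492.5) in high lines, against 389 to 1218 (median 479) in low lines, a change of 2.08 ± 0.36 (adjusted p = 0.000227). The highest low library, replicate 1 of line 441, overlapped the lowest high library. Of the NPF6.3 contigs, 1 was called higher and 1 lower. Helianthus15333, at low values, had 1 to 21 (median 5.5) in high lines, against 27 to 97 (median 54) in low lines, without overlap. Helianthus10620 had medians of 239.5 in high and 234.5 in low lines, and Helianthus10621 had 288.5 and 305. The 4 contigs that match NPF7.3 were all higher in high lines. Helianthus33312 had 87 to 267 (median 174.5) in high lines, against 23 to 82 (median 44) in low lines (1.77 ± 0.29, adjusted p = 0.000129). That contig alone of the 4 separated the classes in every library. Helianthus33314 had 150 to 269 (median 217) in high lines, against 21 to 194 (median 73) in low lines (1.58 ± 0.54, adjusted p = 0.0334).

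NPF contigs that fell included every contig of NPF5.1, 3 in all. Helianthus14770 had 5 to 69 (median 7.5) in high lines, against 78 to 738 (median 495) in low lines, with no overlap (-4.85 ± 0.48, adjusted p = 3.65e-07). Helianthus14769 and Helianthus38650 were also separated in every library. NPF2.10 (Helianthus17786) had 0 to 9 (median 3) in high lines, against 45 to 86 (median 71.5) in low lines (-4.39 ± 0.65, adjusted p = 4.33e-05). All 6 high libraries were below all low ones. For NPF2.11, Helianthus21213 had 371 to 764 (median 522) in high lines, against 1095 to 1444 (median 1263) in low lines (-1.28 ± 0.30, adjusted p = 0.00327). The more abundant NPF2.11 contig, Helianthus17784, was not called (0.46 ± 0.26, adjusted p = 0.195), though it was without the 2 outlying libraries (adjusted p = 0.0161).

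The NPF1.2 contig Helianthus15923 had 20 to 81 (median 60.5) in high lines, against 142 to 304 (median 198.5) in low lines, with no overlap (-2.02 ± 0.33, adjusted p = 0.000132). Helianthus15922 had 7 to 22 (median 12) in high lines, against 49 to 89 (median 69) in low lines. NPF8.1 is the dipeptide transporter PTR1, and its 3 contigs were all lower in high lines. Helianthus41843 had 12 to 33 (median 18.5) in high lines, against 73 to 102 (median 91) in low lines (-2.16 ± 0.38, adjusted p = 0.000292), and Helianthus2854 had 238 to 388 (median 296) in high lines, against 325 to 738 (median 514) in low lines (-0.75 ± 0.17, adjusted p = 0.00214). The first separated the classes and the second did not. NPF8.3, the other peptide carrier, was not called in its main contig (Helianthus31470, -0.46 ± 0.25, adjusted p = 0.174). NPF5.7 had 2 contigs, both lower and both without overlap, with Helianthus32640 at 46 to 140 (median 78.5) in high lines, against 165 to 796 (median 518) in low lines (-2.38 ± 0.55, adjusted p = 0.00281). NPF2.13 and NPF6.2 fell with overlap (Helianthus33036, -1.25 ± 0.31, adjusted p = 0.00459, and Helianthus7359, -1.47 ± 0.42, adjusted p = 0.0117).

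**Figure D3:**
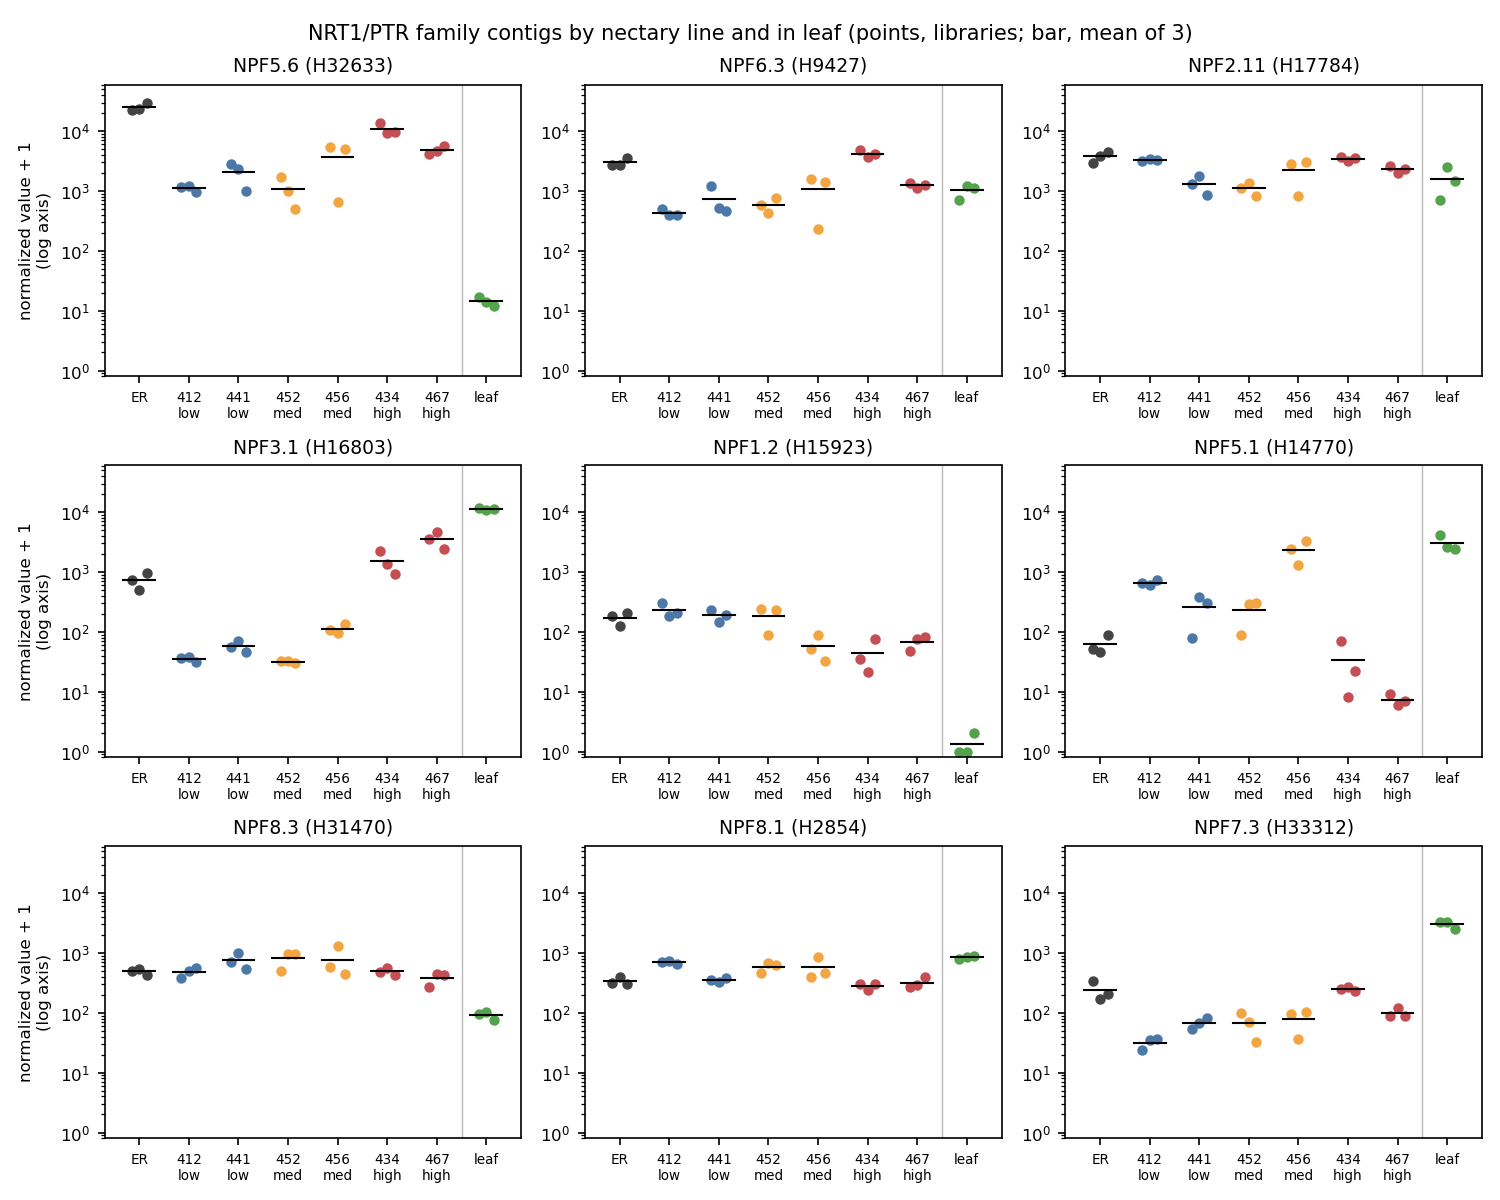
Normalized value + 1 (log axis) of 9 NPF contigs in each library of ER, the 6 crossed lines and leaf, with points for libraries and a bar for the mean of 3. NPF3.1 (Helianthus16803) runs from 29 to 4658 among nectaries with both high lines on top, and NPF5.6 (Helianthus32633) is at 11 to 16 in leaf and from 495 upward in nectaries.

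Outside the NPF group, the SPX-MFS3 contig Helianthus39903 had 1466 to 2091 (median 1917.5) in high lines, against 449 to 525 (median 501) in low lines (1.86 ± 0.14, adjusted p = 8.97e-09). Helianthus39904 had 307 to 472 (median 389) in high lines, against 58 to 97 (median 80.5) in low lines (2.26 ± 0.56, adjusted p = 0.00446). The leaf-rich Helianthus31524 was not called (adjusted p = 0.609). Neither of the called contigs overlapped between classes. The nodulin-like AT2G39210 contig Helianthus26429 had 9224 to 12230 (median 9763) in high lines, against 1028 to 5438 (median 2047) in low lines (2.16 ± 0.46, adjusted p = 0.00136). AT4G34950 (Helianthus31435) had 3531 to 8669 (median 5903.5) in high lines, against 579 to 1323 (median 803) in low lines (2.69 ± 0.37, adjusted p = 1.80e-05). These nodulin-like contigs were separated in every library.

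OPT8 (AT5G53520, Helianthus3572) had 52 to 146 (median 99.5) in high lines, against 3 to 38 (median 13) in low lines (3.00 ± 0.44, adjusted p = 4.27e-05). OPT7 (Helianthus40772) had 239 to 376 (median 274.5) in high lines, against 32 to 84 (median 60) in low lines (2.34 ± 0.25, adjusted p = 9.19e-07). OPT4 (AT5G64410, Helianthus8398) ran the other way, at 1 to 16 (median 8) in high lines, against 46 to 151 (median 72.5) in low lines (-3.32 ± 0.57, adjusted p = 0.000206). None of these 3 contigs overlapped between classes. The more abundant OPT7 contig, Helianthus17086, was not called. It had 410 to 1188 (median 706) in high lines, against 412 to 777 (median 652.5) in low lines. AT5G42210 is a facilitator with 2 contigs called lower. Helianthus36776 had 3 to 146 (median 37.5) in high lines, against 224 to 1379 (median 389) in low lines (-3.99 ± 0.77, adjusted p = 0.000605), and Helianthus9922 had 5 to 40 (median 25) in high lines, against 78 to 274 (median 121) in low lines. STP13 (Helianthus13141) had 4723 to 11525 (median 8093.5) in high lines, against 2475 to 6313 (median 2956) in low lines (1.26 ± 0.21, adjusted p = 0.000132). Replicate 1 of line 441 overlapped the high libraries. ERDL6 (Helianthus38020) rose by 1.02 ± 0.13 (adjusted p = 5.25e-06), with 981 to 2766 (median 1890) in high lines, against 746 to 1067 (median 823) in low lines.

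**Figure D4:**
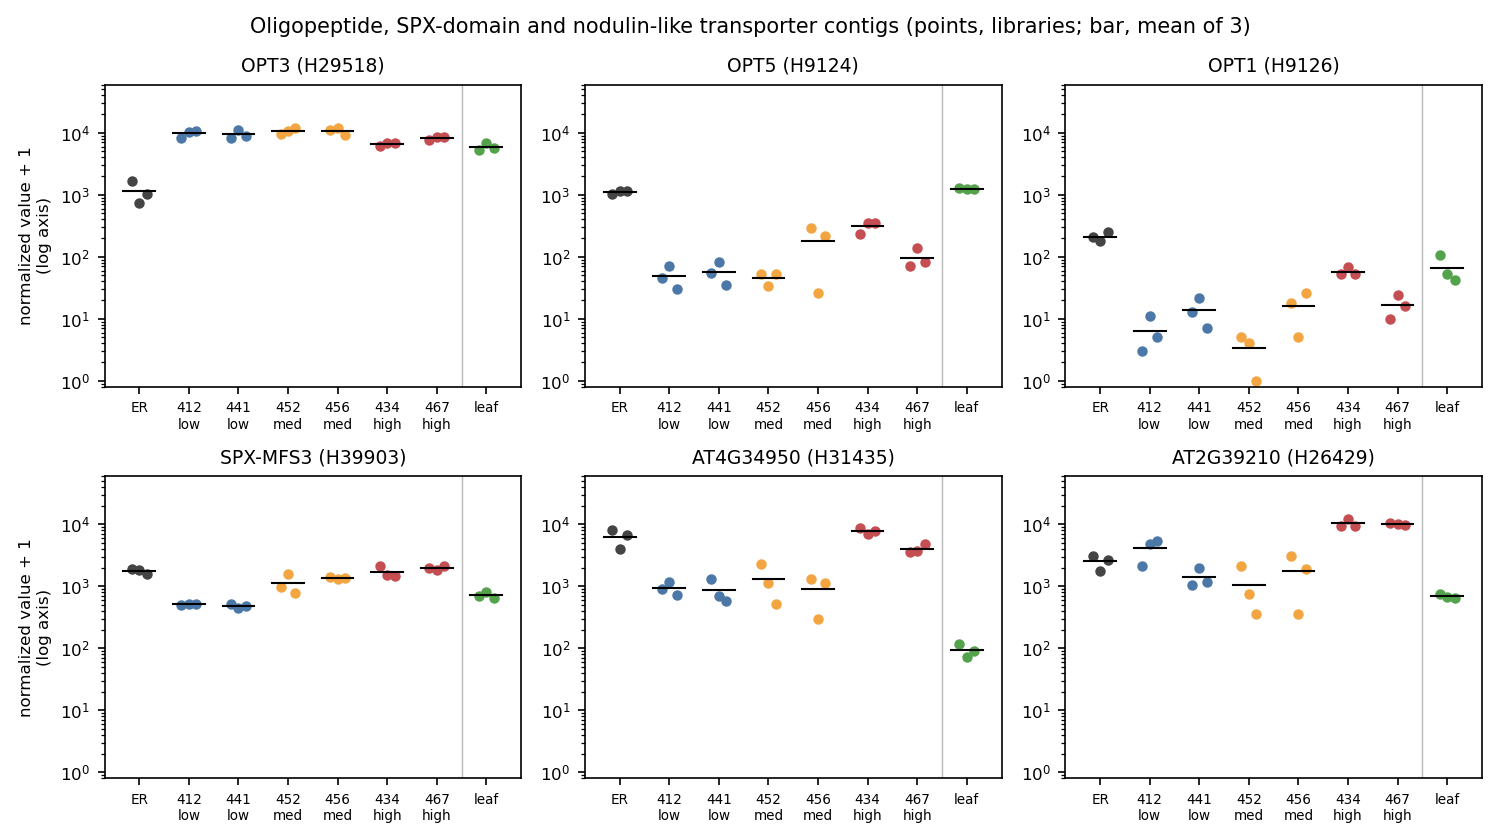
Normalized value + 1 (log axis) of 3 OPT contigs, the SPX-MFS3 contig Helianthus39903 and 2 nodulin-like contigs in each library of ER, the 6 crossed lines and leaf, with points for libraries and a bar for the mean of 3. OPT3 (Helianthus29518) is at 749 to 1673 in ER and at 6196 to 12147 in the crossed lines, while Helianthus39903 is lowest in the low lines, at 449 to 525.

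Markers of other cells moved with this comparison. The 6 pollen marker contigs, of ANX1 and ANX2, summed to 1197 to 1728 in high lines, against 1331 to 3529 in low lines, none was at 0, and 4 of 6 were called lower and 1 higher. Only 2 of the 4 listed pollen genes had a contig. These contigs also summed to 680 to 696 in leaf, so their sums are not particular to pollen. The mesophyll markers summed to 1230 to 5240 in high lines, against 2220 to 6193 in low lines, and 6 of 10 tested contigs were lower and 2 higher. The nectary markers summed to 86362 to 216736 in high lines, against 55750 to 75490 in low lines, and 4 of 8 were called higher and 0 lower. SWEET9, a sucrose exporter of nectaries, averaged 87454 ± 53275 in high lines and 19348 ± 7682 in low lines (SD, n = 6 libraries from 2 lines each, limma adjusted p = 0.00199). Line 434 alone averaged 135090 ± 11561 (SD, n = 3), so the high lines differed widely from each other. Neither of the CRC contigs was called (limma adjusted p = 0.455 and 0.973). The 8 vascular marker contigs summed to 12014 to 15433 in high lines, against 12166 to 17243 in low lines. Their part in the differences between lines was not tested.

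Medium lines differed less from low lines. Of 113 members, 8 were higher and 13 lower, or 18.6%, where 14.7% of contigs were called (5.68% higher and 8.99% lower). NPF contigs had 0 higher and 9 lower of 45. Without the 2 outlying libraries, both from medium lines, 15 were higher and 17 lower where 18.5% of contigs were called, NPF contigs had 4 and 11, and 18 of the 21 calls were kept. With the line as the unit 0 members were called by limma, where 0.0104% of contigs were. The lower count was 6 to 8 without replicate 2 or 3 of line 412, replicate 1 or 3 of line 441, or replicate 3 of line 456.

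The clearest member was the SPX-MFS3 contig Helianthus39903, at 775 to 1588 (median 1335.5) in medium lines, against 449 to 525 (median 501) in low lines. No library overlapped, and the change was 1.27 ± 0.14 (adjusted p = 2.52e-06). The nucleoside transporter ENT3 (AT4G05120, Helianthus41106) had 313 to 809 (median 468.5) in medium lines, against 178 to 266 (median 191.5) in low lines (2.29-fold, adjusted p = 0.000334). NPF6.2 (Helianthus7359) had 70 to 580 (median 411) in medium lines, against 662 to 1223 (median 848.5) in low lines (-1.71 ± 0.42, adjusted p = 0.00868). These were the 3 called members whose libraries did not overlap, 2.65% of the members tested, where 2.45% of all contigs were called without overlap. Pollen markers summed to 2040 to 4679 in medium lines, against 1331 to 3529 in low lines, and mesophyll markers to 1937 to 14546 in medium lines, against 2220 to 6193 in low lines, and their part was not tested. NPF5.1 (Helianthus14770) was not called, although line 456 had 2453, 1295 and 3328, against 88, 290 and 301 in line 452.

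High lines differed from medium lines in 38 members higher and 29 lower of 113, or 59.3%, where 43.8% of contigs were called (23.8% higher and 20% lower). NPF contigs had 11 higher and 18 lower, OPT contigs 7 and 2, nodulin-like contigs 4 and 0, and sugar carriers 8 and 2. Without the 2 outlying libraries 35 were higher and 28 lower where 41.9% of contigs were called, and 57 of the 67 calls were kept. Pollen markers did not overlap between these classes, at 1197 to 1728 in high lines, against 2040 to 4679 in medium lines. Vascular markers summed to 12014 to 15433 in high lines, against 9244 to 20966 in medium lines. Mesophyll markers summed to 1230 to 5240 in high lines, against 1937 to 14546 in medium lines, and the part of these markers in the differences was not tested. This comparison shares its high libraries with the one against low lines, so no relation between them is given. With the line as the unit 5 members were called, where 1.57% of contigs were. They were NPF3.1 (Helianthus16803), the nodulin-like AT4G34950 (Helianthus31435) and AT1G80530 (Helianthus13686), which were higher, and NPF8.1 (Helianthus41843) and AT5G42210 (Helianthus36776), which were lower.

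For NPF3.1, Helianthus16803 had 926 to 4658 in high lines, against 29 to 134 (median 63.5) in medium lines (5.21 ± 0.22, adjusted p = 5.26e-12). NPF5.1 (Helianthus14770) had 5 to 69 in high lines, against 88 to 3328 (median 798) in medium lines (-5.68 ± 0.48, adjusted p = 6.88e-08). Neither overlapped. AT2G39210 (Helianthus26429) had 9224 to 12230 in high lines, against 350 to 3053 (median 1321) in medium lines, a change of 3.31 ± 0.46 (adjusted p = 2.61e-05) that was 2.54 without the outlying libraries. NPF5.8 (Helianthus15392) had 119 to 400 (median 278) in high lines, against 450 to 1376 (median 1080) in medium lines (-1.84 ± 0.37, adjusted p = 0.000909). The STP13 contig Helianthus13140 had 1015 to 2738 in high lines, against 50 to 590 (median 401) in medium lines. Its lowest value belongs to replicate 3 of line 452, and its change of 2.52 ± 0.42 was 1.95 without the outlying libraries (adjusted p = 0.000195 and 4.37e-06).

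The maintainer line ER was set against the mean of the 6 crossed lines. Of 113 members, 29 were higher and 15 lower in ER, or 38.9%, where 24.1% of contigs were called (10.4% higher and 13.7% lower). NPF contigs split evenly, 10 and 10 of 45, while OPT contigs had 5 higher and 2 lower, other facilitators 6 and 1, and sugar carriers 5 and 1. Without the 2 outlying libraries 47 were higher and 21 lower, where 36.7% of contigs were called, and all 44 calls were kept. Without replicate 3 of ER the lower count was 7.

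OPT3 (Helianthus29518) gave the lowest adjusted p. It had 1673, 749 and 1034 in ER, against 6196 to 12147 (median 9073) in the 18 libraries of the crossed lines, with no overlap and a change of -3.06 ± 0.17 (adjusted p = 4.84e-10). The other OPT3 contigs, at lower values, did not lie below the crossed lines in ER. Helianthus29538 had 62 to 104 in ER, against 8 to 105 (median 54.5) in crossed lines. Helianthus29544 had 115 to 234 in ER, against 19 to 575 (median 190) in crossed lines. Contigs of OPT5, OPT1 and OPT7 moved up. OPT5 (AT4G26590, Helianthus9124) had 1023, 1155 and 1169 in ER, against 25 to 353 (median 69.5) in crossed lines (3.71 ± 0.47, adjusted p = 1.09e-05). Its leaf values, 1274, 1219 and 1260, were above those of ER. OPT1 (AT5G55930, Helianthus9126) had 204, 177 and 249 in ER, against 0 to 68 (median 11) in crossed lines (4.19 ± 0.51, adjusted p = 6.26e-06). OPT7 (Helianthus17086) had 1219, 1430 and 1763 in ER, against 162 to 1188 in crossed lines (1.46 ± 0.29, adjusted p = 0.000961). All 3 were above every crossed library. The OPT4 contig Helianthus8398 had 4, 10 and 2 in ER, within its range of 1 to 151 in crossed lines. The 13 OPT contigs, OPT3 included, summed to 4256 to 5346 in ER, against 8417 to 12916 in crossed lines.

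NPF5.6 (Helianthus32633) was highest in ER of all lines, at 22182, 23743 and 29651, against 495 to 13601 (median 2578) in crossed lines, with no overlap (3.30 ± 0.46, adjusted p = 2.57e-05). It made up most of the NPF total there, as the 48 NPF contigs summed to 36375 to 44676 in ER. NPF7.3 (Helianthus33314) had 652, 285 and 376 in ER, against 2 to 269 (median 151) in crossed lines (2.15 ± 0.59, adjusted p = 0.0113). Its call was lost without ER replicate 1 (adjusted p = 0.0925). NPF3.1 (Helianthus16803) had 730, 494 and 976 in ER, against 29 to 4658 (median 82) in crossed lines. It was called higher on the log scale (1.98 ± 0.23, adjusted p = 4.10e-06) although both high lines lay above ER in all but 1 library. NPF2.13 (Helianthus33036) had 127, 74 and 85 in ER, against 62 to 977 (median 324) in crossed lines (-1.57 ± 0.33, adjusted p = 0.00178). NPF2.10 (Helianthus17786) had 3, 0 and 0 in ER, against 0 to 86 in crossed lines (-3.19 ± 0.70, adjusted p = 0.00225). Both overlapped the high lines. The nectary markers summed to 206179 to 282774 in ER, against 38349 to 216736 in crossed lines. Vascular markers summed to 8211 to 9788 in ER, against 9244 to 20966 in crossed lines, where only replicate 3 of line 456 overlapped ER. Pollen markers summed to 1053 to 1306 in ER, against 1197 to 4679 in crossed lines, and mesophyll markers to 3427 to 5859 in ER, against 1230 to 14546 in crossed lines. The part of these markers in the ER differences, OPT3 included, was not tested. In 11 of the 44 called members ER and the crossed lines did not overlap, which is 9.73% of the members tested, where 4.88% of all contigs were called without overlap. Among called contigs alone the share was 25% for members and 20.3% for all contigs.

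Among the 7 nectary lines as a whole, 81 of 113 members differed by limma's moderated F, or 71.7%, where 50.6% of contigs did. NPF contigs accounted for 38 of 45, sugar carriers for 12 of 15, OPT contigs for 7 of 13 and other facilitators for 16 of 30. Without the 2 outlying libraries 101 members were called, where 68.9% of contigs were. The highest line mean was over 4 times the lowest in 53 of the 81 and over 10 times in 21. ER had the highest mean in 21 of them, 456 in 15, 434 in 13, 441 in 10, 412 in 9, 452 in 7 and 467 in 6. Neither these ratios nor these ranks were counted over all called contigs, so they are not traits particular to these transporters.

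The smallest adjusted p among lines belonged to NPF3.1 (Helianthus16803, adjusted p = 3.99e-12). In order of line level it was highest in 467 and 434, then ER at 494 to 976, then 456 at 95 to 134, then 441 at 45 to 69, and lowest in 412 at 30 to 37 and 452 at 29 to 32. Lines 412 and 452 overlapped, and so did 434 and ER, while 467 lay above 434 in every library. The main OPT3 contig (Helianthus29518, adjusted p = 5.19e-09) set ER apart from the other 6 lines. SPX-MFS3 (Helianthus39903, adjusted p = 1.10e-07) set lines 412 and 441 apart. AT3G09470 (Helianthus29145, adjusted p = 1.58e-07) set line 441 apart, at 198, 186 and 195, whereas the other nectary lines had 371 to 981. ERDL6 (Helianthus38020, adjusted p = 2.30e-08) was highest in ER at 2537 to 3424 and line 434 at 2513 to 2766, which overlapped, and was at 549 to 1267 in the other lines. NPF5.1 (Helianthus14770, adjusted p = 1.54e-07) was highest in line 456 and lowest in 467, at 5 to 8. NPF7.2 (Helianthus19635, adjusted p = 0.00213) was highest in line 452, at 129, 202 and 175, with 1 ER library at 141 and all others at 17 to 58.

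**Figure D5:**
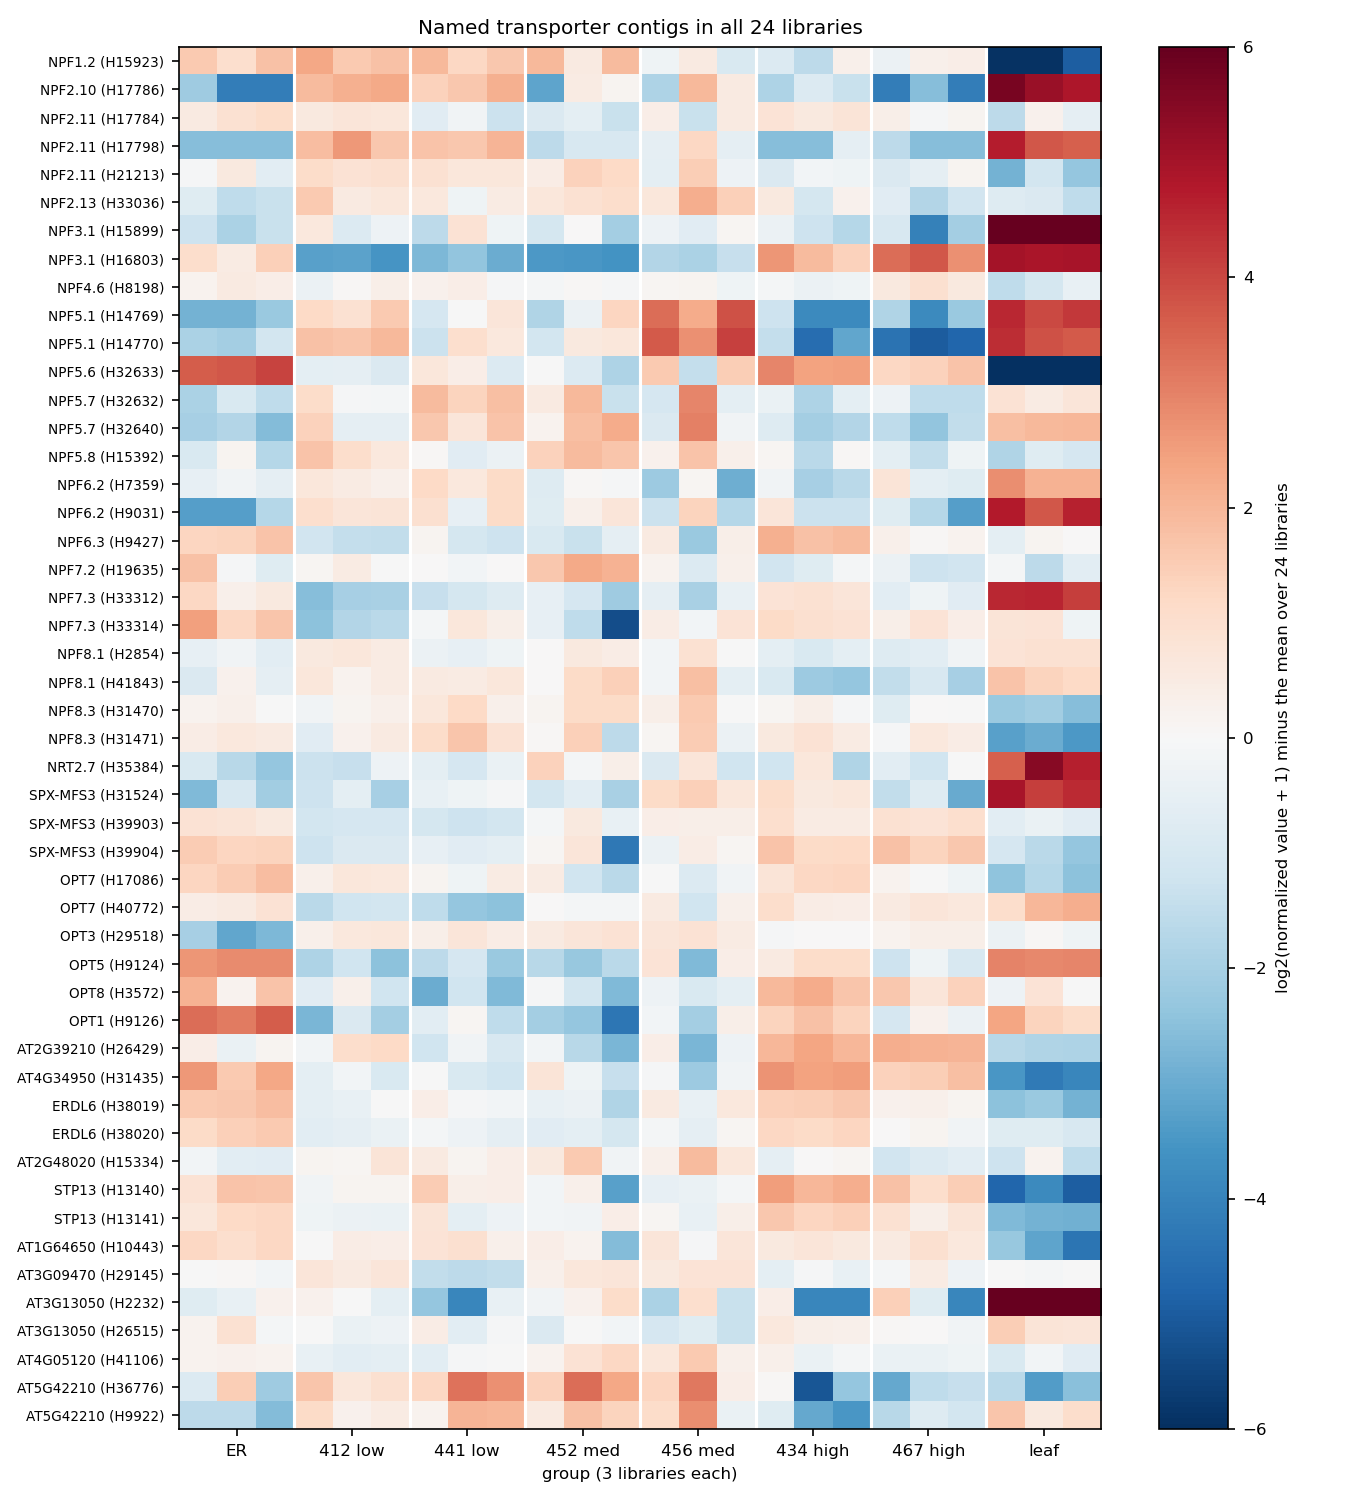
log2(normalized value + 1) minus its mean over 24 libraries for the 49 named contigs (rows, by family) in 8 groups of 3 libraries (columns), red above and blue below the mean. Leaf stands apart for NPF5.6, NPF1.2, NRT2.7 and NPF3.1 contigs, ER for OPT1 and OPT3, and ER together with leaf for OPT5. Replicate 2 of line 456 differs from the other libraries of its line in many rows.

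Genes that act beside these transporters were listed by name. Of 23 contigs for nitrogen assimilation, 11 were higher and 6 lower in nectary of line 434 than in leaf, with a median of 0.60 where all contigs had 0.48. Over all contigs 39.6% were higher and 22% lower. Nitrate reductase NIA2 (Helianthus12166) averaged 22.7 ± 18.8 in nectary of line 434 and 10275 ± 5421 in leaf (SD, n = 3 each; limma adjusted p = 2.85e-09). Plastid glutamine synthetase GLN2 (Helianthus29849) averaged 49.7 ± 2.52 in nectary of line 434 and 18893 ± 4396 in leaf (SD, n = 3 each; limma adjusted p = 4.67e-13). The cytosolic GLN1;1 (Helianthus33826) ran the other way, at 626 ± 113 in nectary of line 434 and 6.33 ± 2.31 in leaf (SD, n = 3 each; limma adjusted p = 9.88e-11). In high against low lines 3 of 22 tested contigs were higher and 0 lower, where 12.3% and 18.9% of all contigs were. Among them was GLN1;1 (Helianthus10304), at 32287 ± 4803 in high lines and 10917 ± 2632 in low lines (SD, n = 6 libraries from 2 lines each; limma adjusted p = 4.33e-06).

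For nitrate and ammonium channels, partners and regulators, 10 of 41 contigs were higher and 18 lower in nectary of line 434 than in leaf, where 39.6% and 22% of all contigs were. NRT3.1, the partner protein that NRT2 nitrate transporters need at the plasma membrane, averaged 0.667 ± 0.577 in nectary of line 434 and 1177 ± 67.3 in leaf for Helianthus7902 (SD, n = 3 each; limma adjusted p = 5.19e-13). The ammonium transporter AMT1;1 (Helianthus25383) averaged 1.0 ± 1.73 in nectary of line 434 and 8905 ± 1367 in leaf (SD, n = 3 each; limma adjusted p = 1.16e-10). In high against low lines 2 of 38 were higher and 11 lower, where 12.3% and 18.9% of all contigs were. CIPK8, a kinase of nitrate sensing, was higher (Helianthus37118, 1.98 ± 0.47, adjusted p = 0.0034), and the anion channel SLAH3 was lower (Helianthus6754, -1.56 ± 0.29, adjusted p = 0.000432). Phosphate uptake and signalling had 0 higher and 6 lower of 15 in nectary of line 434 against leaf, where 39.6% and 22% of all contigs were. In high against low lines it had 3 higher and 1 lower of 14, where 12.3% and 18.9% of all contigs were. The lower one matches PHR1, the regulator of phosphate starvation responses. Helianthus19081 was listed at 0 in all 6 libraries of high lines and at 60.5 ± 8.83 in low lines (SD, n = 6 libraries from 2 lines; limma adjusted p = 3.96e-08). Another PHR1 contig, Helianthus19082, was higher (0.46 ± 0.13, adjusted p = 0.0144). The chloroplast phosphate transporter PHT2;1 averaged 37.8 ± 13.2 in high lines and 6.5 ± 6.86 in low lines for Helianthus12473 (SD, n = 6 libraries from 2 lines each; limma adjusted p = 6.39e-06). SPX1, a phosphate sensor, was higher by 0.53 ± 0.19 (Helianthus29279, adjusted p = 0.0404).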

How the data were processed

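Per the file headers, the authors deposited an expression score scaled to the upper quartile and rounded to whole numbers; the header of ER replicate 3 does not name the normalization, and its values have the same scale. The sources used here do not name an aligner, assembler or counting tool. A set of 16 deposited columns of group means and SDs was not used. Because the score is normalized and rounded, no count model was used. On the log2(value + 1) scale, contigs averaging 10 or more across the libraries of a fit entered limma 3.58.1 (R 4.3.3) with 1 mean per group and trended variances, with Benjamini-Hochberg adjustment over all contigs and calls under 0.05. Nectary against leaf used 24 libraries and the other comparisons 21, with classes as means of 2 lines. The procedure was tested on simulated data. Reads per library were estimated from the spacing of low values (median 12.26 M).

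Members, lists and groups were chosen with earlier results of these data known. Named contigs are, per comparison, the largest called changes without overlap and with a higher mean of at least 100 (8 per direction for nectary against leaf and for high against low, 5 otherwise), the most abundant members, contigs of 18 fixed matches (5 had none) and the 6 with the smallest p among lines, 49 contigs in all; further contigs of a named match were added after their values were seen. Alternatives were another added constant (5), a mean of at least 50 or none, library weights, median-ratio rescaling, compared groups alone, a replicate block, the line as the unit, sums over a match, other nectary lines against leaf, and each library left out; leaving out 2 outlying libraries together was added after seeing the data. Contigs that share a match can divide reads between them. No sequence of these contigs was used here. Python 3.11.15, pandas 2.3.3, numpy 2.4.6 and matplotlib 3.10.9 were used.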

Additional observations from a re-analysis of the deposited data

Results flagged for a closer look

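In 147 sets of 6 libraries (49 named contigs in 3 classes), 8 values lay far from the other 5 of their class; chance alone marks about 1 in 20 such sets. In the low lines, replicate 1 of line 441 was high for STP13 (Helianthus13140 at 1373, others 413 to 640; Helianthus13141 at 6313, others 2475 to 3080) and for NPF6.3 (Helianthus9427 at 1218, others 389 to 526). Replicate 2 of line 441 was low for NPF6.2 (Helianthus9031 at 6, others 15 to 21). In the medium lines, replicate 3 of line 452 was low for STP13 (Helianthus13140 at 50, others 344 to 590), AT1G64650 (Helianthus10443 at 27, others 159 to 279) and SPX-MFS3 (Helianthus39904 at 6, others 107 to 232). Replicate 2 of line 456 was high for NPF2.11 (Helianthus17798 at 13, others 1 to 3), a contig at 69 to 154 in leaf. In that library the mesophyll markers summed to 14546, against 3455 and 3529 in the other libraries of its line. Its NPF5.6 contig (Helianthus32633) was at 664, against 5325 and 4997 there.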

How the results depend on the processing

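Of 81 single-contig results, values kept their direction and call in 1583 of the alternatives, lost the call in 52, gained it in 19 and reversed in 1, OPT3 (Helianthus29518) with ER nectary against leaf (-2.42). The line as the unit accounted for 32 of the 52 lost calls, and only 13 results stayed the same in that setting. Summed over contigs of a match, counts were 19 higher and 24 lower for nectary against leaf, where 72.3% of all matched genes were called. For high against low 13 were lower, where 38.8% of all matched genes were called in either direction. Counts in the sums were 5 and 6 for medium against low, 19 and 16 for high against medium, 6 lower for ER, and 48 among lines. With the line as the unit they were 1 and 0, 0 and 0, and 3 and 2 for the class comparisons in that order. Library weights gave 13 and 20 for medium against low and 44 higher for ER. A mean of at least 50 gave 6 lower for medium against low and 9 lower for ER, and fitting the compared groups alone gave 7 lower for medium against low. Without the 2 outlying libraries, 15 were higher for medium against low and 47 for ER. Leaving out 1 library at a time gave, higher and lower, 35 to 39 and 42 to 46 for nectary against leaf, 23 to 26 and 21 to 26 for high against low, 8 to 10 and 6 to 19 for medium against low, 30 to 41 and 27 to 30 for high against medium, 22 to 42 and 7 to 20 for ER, and 72 to 93 among lines. The causes were not tested, apart from the fewer features in the sums. Shares over all contigs are not given for library weights, the higher minimum mean, compared groups alone, single libraries left out or the replicate block. Counts in those settings therefore show only how the number of called members moved.

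Replicate numbers recur in every group. Over 84 same-numbered pairs, deviations correlated at -0.29 to 0.26 (median 0, beside 0.01 for different numbers), and 10 pairs were over 0.1. Of 24 libraries, 10 correlated best with their own number. The main fits therefore used no pairing, though such correlations cannot show that same-numbered samples share nothing else. With a replicate block the counts were 39 and 47, 27 and 26, 8 and 13, 38 and 29, 29 and 14, and 80 among lines, and no single-contig call changed.

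Depth limits contigs with values of a few units, where 1 read was worth 0.678 to 1.5 units.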

Other observations

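Over the 15 sugar carrier contigs, the summed value was 13546 to 18044 in ER, 17831 to 20974 in line 434 and 9998 to 12820 in line 467, while the low and medium lines ranged from 6342 to 11413 and leaf from 3153 to 3722. The 8 nodulin-like contigs summed to 18037 to 20173 in line 434 and 14368 to 15153 in line 467, and to 920 to 6758 in the low and medium lines. In ER they summed to 6555 to 12249 and in leaf to 1456 to 1536.

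A pair of NPF6.3 contigs varied within line 452: Helianthus10621 had 507, 2226 and 2353, and Helianthus10620 had 509, 1713 and 221. In ER, replicate 2 alone was high for both, at 1322 and 1054, with the other ER libraries at 115 to 234. Ascorbate transporter PHT4;4 of the chloroplast (AT4G00370, Helianthus39128) had 2663, 2178 and 2347 in leaf, above every nectary library. These were chosen after their values were seen.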
